A study of Mus musculus with 20 samples.

Results

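The genes of cholesterol and fatty acid synthesis described here were 32 of the 55260 mouse genes to which the transcripts of the study were summed. They were taken by name from the SREBP and LXR pathways and fell into 4 roles. These were 15 enzymes of sterol synthesis, 10 enzymes of fatty acid synthesis and modification, and 3 genes of SREBP and its control. The last role was the LXR receptor gene Nr1h3 with 3 of its target genes. RNA had been sequenced from 4 populations sorted out of MC38-OVA tumours, a mouse colon carcinoma line that expresses ovalbumin, grown in C57BL/6 mice. Besides CD8 T cells these comprised 3 myeloid fractions, gated on the integrins CD11c and CD11b, of which the labels call the CD11c+CD11b+ and CD11c+CD11b- fractions dendritic cells and the CD11c-CD11b+ fraction myeloid cells. Each population came from 5 treatments: untreated (sham irradiation); RT, a dose of 8 Gy to the tumour on day 12; RT+aSIRPa, which added 400 µg of an antibody against the phagocytosis checkpoint SIRPa on days 12, 14 and 16; RT+aPD-1, which added 250 µg of an antibody against the T cell checkpoint PD-1 on days 12 and 15; and RT+aSIRPa+aPD-1. Harvest was on day 17, which is 5 days past the irradiation.

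There was a single library per group, 20 in all. Leukocytes of 10 tumours, each from a different mouse, were pooled per treatment and all 4 populations were sorted out of that pool. No treatment was repeated in a population, so the tests take as error what varied between treatment pools beyond the terms of each fit. A difference between 2 pools cannot be told apart from a difference between their mice. Levels are given as CPM, counts relative to library size, scaled by the trimmed mean of M-values (TMM). Where 5 CPM values follow each other, they stand in the order untreated, RT, RT+aSIRPa, RT+aPD-1 and RT+aSIRPa+aPD-1.

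Cholesterol is built from acetyl-CoA through mevalonate, isoprenoids, squalene and lanosterol, and fatty acids are built from malonyl-CoA, then lengthened and desaturated. The SREBP transcription factors, encoded by Srebf1 and Srebf2, turn on the enzymes of both routes when sterols in the membrane of the endoplasmic reticulum are low, and INSIG proteins hold them back when sterols are high. The LXR receptors respond to oxidised sterols and raise cholesterol export through Abca1 and Abcg1. In macrophages, which take up much cholesterol with the cells they engulf, sterol synthesis and cholesterol export are known to move in opposite directions.

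Library totals ran from 21522743 to 35696925 counts. The rarest member count was 19, for Nr1h3, and 29 of the 32 genes had at least 100 counts in every library. The CD8 T markers Cd8a, Cd8b1, Cd3e, Cd3g, Cd3d and Cd2 summed to 2104 to 3313 CPM in the 4 irradiated CD8 T libraries but to 147 CPM in the library labelled untreated CD8 T, where 7 macrophage markers summed to 8444 CPM against 601 to 1356 in the other 4. That library goes against its label, so the CD8 T comparisons below use the 4 irradiated pools. Itgax, the gene of CD11c, measured 71.6 to 122 CPM in CD11c-CD11b+ cells and 265 to 417 CPM in both CD11c+ fractions. Itgam, the gene of CD11b, measured 57.9 to 117 CPM in CD11c+CD11b- cells and 749 to 1874 CPM in both CD11b+ fractions. The macrophage markers summed to 3873 to 7150 CPM in CD11c+CD11b+ cells, which the labels call dendritic cells, and to 252 to 583 CPM in CD11c+CD11b- cells.

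The summed level of the sterol synthesis genes was highest in the untreated library of every myeloid fraction and lowest in a library that had received anti-PD-1, while single genes such as Pmvk and Mvd departed from this order. Summed over the 15 genes, the level was 721, 260.2, 393, 184 and 230.4 CPM in CD11c+CD11b+ cells. The sum was 776, 359, 462, 286 and 282 CPM in CD11c+CD11b- cells. It was 767, 258, 477, 195 and 219 CPM in CD11c-CD11b+ cells. After RT alone the sum was thus 36.1%, 46.3% and 33.7% of the untreated level in these 3 fractions, and after RT+aSIRPa it was 54.5%, 59.5% and 62.1%. Bulk RNA cannot tell fewer cells with high levels from less RNA per cell.

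**Figure D1:**
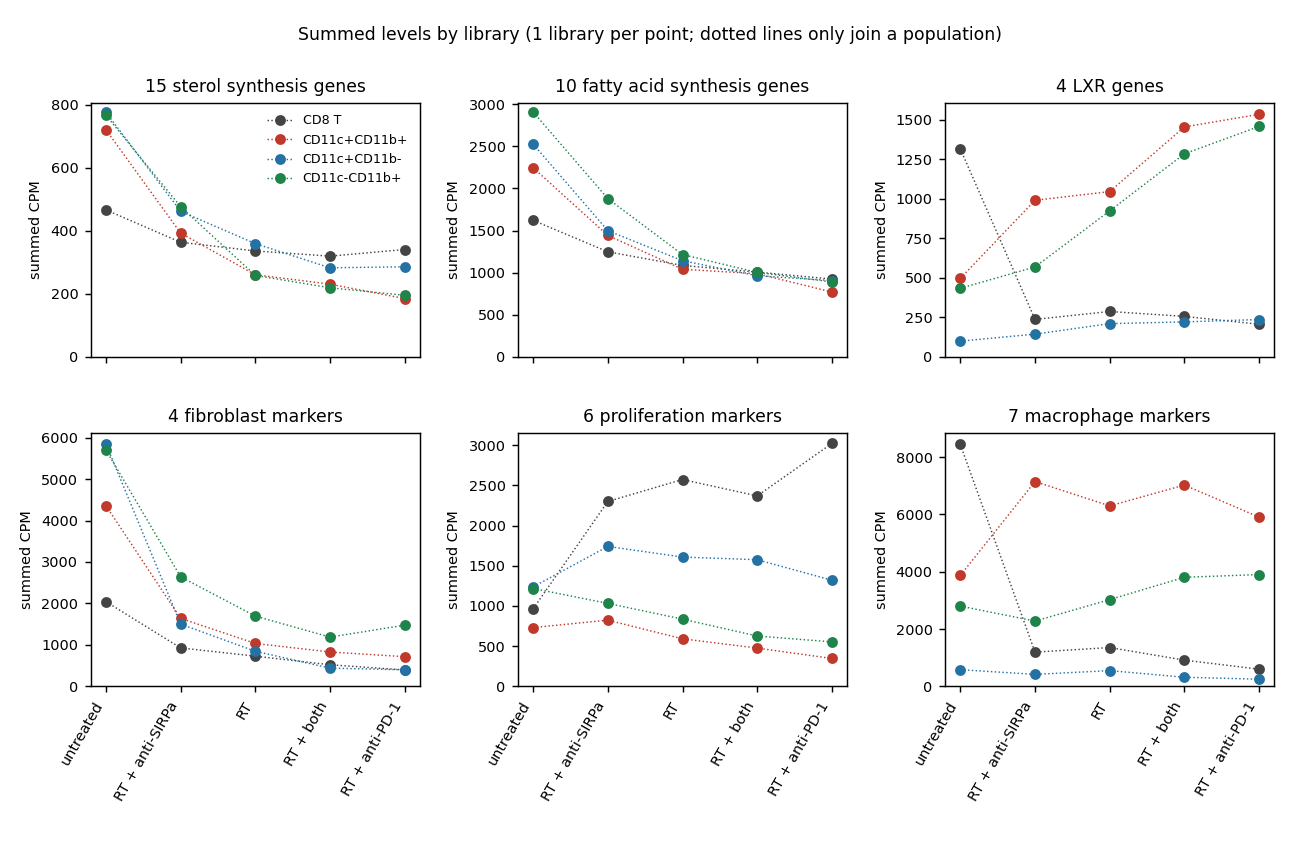
Summed CPM (linear vertical axes from 0) of 3 member groups and of the markers of fibroblasts, dividing cells and macrophages, by treatment on the horizontal axis. Each point is 1 library and colours are populations. In the 3 myeloid fractions the sterol and fatty acid sums are highest untreated and the LXR sums lowest, and the point for untreated CD8 T is the library that goes against its label.

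The first steps make the isoprenoid units. Hmgcs1, the synthase that joins acetyl-CoA units ahead of mevalonate, illustrates the order of the libraries. Hmgcs1 measured 110.2, 41.9, 56.1, 27.3 and 35.4 CPM in CD11c+CD11b+ cells. The 5 CD11c+CD11b- libraries held 128, 63.3, 77.8, 46.7 and 46.7 CPM. The 5 CD11c-CD11b+ libraries held 114, 39.1, 62.6, 30.3 and 30.8 CPM. In each fraction the untreated library was the highest, RT+aSIRPa came next, RT followed, and both anti-PD-1 libraries lay at the bottom. Even the highest irradiated library reached only 50.9%, 60.7% and 55.1% of the untreated Hmgcs1 level.

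Fdps, which condenses isoprenoid units to farnesyl diphosphate, spread further. Fdps was at 74.2, 19.4, 40.9, 8.96 and 15.7 CPM in CD11c+CD11b+ cells. The 5 CD11c+CD11b- libraries held 79.4, 30.5, 47.7, 19.2 and 19.7 CPM. The 5 CD11c-CD11b+ libraries held 81.2, 18.4, 54.6, 12.3 and 15.7 CPM. The irradiated libraries thus differed from each other several-fold, and the groups with and without anti-PD-1 did not overlap. Among genes with a summed level of at least 10 CPM, both anti-PD-1 libraries lay below both others in many. The shares were 34.7%, 36.8% and 30.7% in the CD11c+CD11b+, the CD11c+CD11b- and the CD11c-CD11b+ fraction. Idi1, the isomerase that supplies Fdps, measured 28.4, 8.76, 13.7, 5.18 and 7.79 CPM in CD11c+CD11b+ cells and 31.2, 9.41, 15.1, 5.54 and 6.02 CPM in CD11c-CD11b+ cells. In CD11c+CD11b- cells Idi1 stood at 30.6, 18.3, 21.5, 12.8 and 13.4 CPM, so its irradiated libraries were higher there than in the other 2 fractions. Mvk, mevalonate kinase, measured 16.2, 7.51, 11.1, 7.38 and 7.17 CPM in CD11c+CD11b+ cells and at most 8.47 CPM in an irradiated CD11c+CD11b- library.

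Pmvk and Mvd, which phosphorylate and decarboxylate the mevalonate product, departed from this order. Pmvk measured 15.6, 26.6, 18.1, 32.2 and 23.0 CPM in CD11c+CD11b- cells, where all 4 irradiated libraries lay above the untreated one. In CD11c+CD11b+ cells Pmvk measured 22.5, 18.1, 16.0, 17.8 and 20.4 CPM. In CD11c-CD11b+ cells it measured 14.3, 9.14, 13.6, 10.1 and 10.0 CPM, with all irradiated libraries below the untreated one. Mvd measured 20.8, 9.86, 11.1, 10.2 and 10.2 CPM in CD11c+CD11b+ cells, with the irradiated 4 close together below the untreated library.

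The next 3 enzymes commit isoprenoids to sterols. Sqle, the oxygenase that is often rate-limiting after mevalonate, spanned a wide range in both CD11b+ fractions. Sqle measured 76.6, 16.2, 34.7, 8.91 and 12.4 CPM in CD11c+CD11b+ cells. The 5 CD11c+CD11b- libraries held 77.4, 23.9, 37.1, 18.7 and 18.5 CPM. The 5 CD11c-CD11b+ libraries held 79.8, 19.4, 43.3, 10.2 and 15.4 CPM. The RT+aSIRPa library held the highest irradiated value in each fraction, at 45.3%, 48.0% and 54.3% of untreated. Fdft1, squalene synthase, measured 54.5, 16.5, 26.2, 14.6 and 15.9 CPM in CD11c+CD11b+ cells and 57.4, 15.6, 37.7, 12.9 and 17.3 CPM in CD11c-CD11b+ cells. Lss, which closes the rings to lanosterol, measured 35.8, 10.6, 17.5, 6.91 and 7.76 CPM in CD11c+CD11b+ cells. Its CD11c+CD11b- values of 54.7, 20.6, 32.9, 21.2 and 19.9 CPM lay higher in every pool.

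Of the enzymes after lanosterol, Cyp51, the lanosterol demethylase, measured 118, 30.0, 52.8, 17.0 and 23.2 CPM in CD11c+CD11b+ cells. Its CD11c+CD11b- values were 119, 39.7, 58.9, 23.4 and 28.4 CPM. Its CD11c-CD11b+ values were 128, 30.1, 69.5, 18.6 and 24.6 CPM. Cyp51 thus had untreated on top and RT+aPD-1 at the bottom in all 3 fractions. Msmo1, the next demethylating oxidase, measured 55.4, 22.2, 32.2, 15.4 and 20.5 CPM in CD11c+CD11b+ cells. Hsd17b7, a ketoreductase, measured 19.3, 5.62, 10.9, 4.08 and 5.70 CPM there, and Sc5d, a desaturase of the sterol ring, 36.2, 15.6, 23.6, 11.6 and 13.4 CPM. Dhcr7, which makes the last reduction to cholesterol, ranged less, from 14.4 to 33.9 CPM in CD11c+CD11b+ cells. The smallest ratio of highest to lowest library in this fraction belonged to Nsdhl, a dehydrogenase of the demethylation steps, at 19.0, 17.2, 18.1, 14.7 and 14.5 CPM.

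The promoters of these genes are shown because SREBP binds sterol regulatory elements next to CCAAT boxes, the sites of its partner NF-Y. Promoter sequences, 250 bases before each start, came from RefSeq (GRCm38.p6), and 25 of the 32 genes matched; Scd1, Scd2, Fads1, Fdft1, Fdps, Sqle and Abcg1 did not. A script searched both strands for the core TCACNCCA and for CCAAT, which do not overlap in the windows printed here. The core was found in 3 of 25 members, Hmgcs1, Msmo1 and Srebf2, and in 4.2% of all 27025 genes with a promoter of that length (3.67% of 32851 promoters). CCAAT was found in 19 of the 25, among them all 12 matched sterol genes, and in 37.5% of all genes (33.8% of promoters). The LXR response element, read as 2 copies of AGGTCA with 4 free bases between them, was found in 0 of the 25 and in 0.0152% of all promoters, which says only that these letters are not in this window. Capitals mark the core and the CCAAT box (ATTGG on the other strand), 5′ to 3′ on the gene's strand. The windows lie on the plus strand, Hmgcs1 at chr13:119690160-119690236 and Srebf2 at chr15:82147092-82147153. The window of Msmo1 is not printed, since it lies inside the gene as annotated for the counts, whose start differs from that of RefSeq.
Hmgcs1: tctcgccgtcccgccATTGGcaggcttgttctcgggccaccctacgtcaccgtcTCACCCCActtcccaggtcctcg
Srebf2: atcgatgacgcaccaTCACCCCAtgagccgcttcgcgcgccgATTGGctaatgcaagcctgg
The starts of core and box lie 39 bases apart in Hmgcs1 and 27 in Srebf2, which describes the sequences and is not a test of binding.

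Fatty acid genes had sums in the same order of untreated, RT+aSIRPa, RT and the anti-PD-1 libraries, and Fads2 had the widest ratio of highest to lowest library of all members in both CD11b+ fractions. The 10 genes summed to 2247, 1039, 1441, 768 and 987 CPM in CD11c+CD11b+ cells. They summed to 2528, 1141, 1498, 905 and 961 CPM in CD11c+CD11b- cells. The sum was 2910, 1214, 1879, 888 and 1002 CPM in CD11c-CD11b+ cells. After RT alone these sums were 46.2%, 45.1% and 41.7% of the untreated values.

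Scd1 and Scd2 are stearoyl-CoA desaturases, which make monounsaturated fatty acids. Scd1 measured 137, 36.1, 68.0, 16.0 and 28.4 CPM in CD11c+CD11b+ cells. The 5 CD11c+CD11b- libraries held 169, 39.2, 66.7, 23.5 and 29.1 CPM. The 5 CD11c-CD11b+ libraries held 214, 56.3, 121, 34.0 and 37.7 CPM. Every irradiated Scd1 value was below the untreated one, and the highest of them reached 49.6%, 39.6% and 56.6% of it. Scd2, its neighbour and near copy on chromosome 19, measured 672, 198, 319, 153 and 209.8 CPM in CD11c+CD11b+ cells. In CD11c+CD11b- cells Scd2 measured 785, 206, 319, 156 and 177 CPM, and in CD11c-CD11b+ cells 896, 236, 426, 176 and 209 CPM. The split of reads between these 2 similar genes rests on the submitters' counting and is uncertain.

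Fads1 and Fads2, the front-end desaturases of polyunsaturated fatty acids, lie side by side on chromosome 19. Fads2 stood at 80.0, 12.0, 40.7, 4.67 and 8.32 CPM in CD11c+CD11b+ cells. The 5 CD11c+CD11b- libraries held 85.8, 32, 39.3, 31.9 and 19.1 CPM. The 5 CD11c-CD11b+ libraries held 111, 18.0, 62.6, 8.97 and 12.6 CPM. Fads2 in the RT+aPD-1 library was at 4.67 CPM in CD11c+CD11b+ cells, the lowest of the 15 myeloid values. The CD11c+CD11b- fraction differed in that RT+aPD-1 (31.9 CPM) and RT (32 CPM) were nearly equal. Fads1 measured 182, 78.5, 124, 57.1 and 71.1 CPM in CD11c+CD11b+ cells and 176, 43.8, 65.9, 26.0 and 27.8 CPM in CD11c+CD11b- cells. In CD11c-CD11b+ cells Fads1 measured 218, 60.6, 121, 43.6 and 49.4 CPM.

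Among the enzymes that supply and build the chain, ranges differed widely. Acly, which makes cytosolic acetyl-CoA from citrate, measured 505, 360.2, 389.7, 321 and 352 CPM in CD11c+CD11b+ cells, with the untreated library above the rest. Acaca, the carboxylase that makes malonyl-CoA, measured 122, 68.7, 90.1, 48.9 and 63.8 CPM there. Fasn, the fatty acid synthase itself, measured 395, 194, 306, 101 and 170.0 CPM in CD11c+CD11b+ cells. Its level was 546, 305, 416, 232 and 255 CPM in CD11c+CD11b- cells and 623, 299, 487, 167 and 227 CPM in CD11c-CD11b+ cells, and in all 3 fractions RT+aPD-1 held the lowest Fasn value. Elovl6, which lengthens saturated chains, measured 44.9, 14.2, 23.3, 6.79 and 11.4 CPM in CD11c+CD11b+ cells and 62.4, 29.7, 41.7, 25.9 and 28.5 CPM in CD11c+CD11b- cells. Acsl3, which activates long-chain fatty acids, measured 34.1, 14.1, 21.5, 7.54 and 10.6 CPM in CD11c+CD11b+ cells and 34.3, 9.58, 13.2, 4.10 and 7.29 CPM in CD11c+CD11b- cells. Elovl5, which lengthens polyunsaturated chains, was the exception: in CD11c+CD11b- cells it measured 80.5, 100, 87.1, 96.2 and 94.3 CPM, all irradiated libraries above untreated, and in CD11c-CD11b+ cells 73.4, 53.0, 63.0, 41.5 and 46.9 CPM, all below.

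Per kilobase of transcript, Acly was the most abundant of the 25 synthesis enzymes in the irradiated libraries, at 81.6, 65.1 and 83.6 CPM per kb on average in the CD11c+CD11b+, the CD11c+CD11b- and the CD11c-CD11b+ fraction. Scd2 followed at 40.4, 39.4 and 48.0 CPM per kb. Among the sterol genes Fdps and Pmvk led in CD11c+CD11b+ cells, at 16.7 and 15.2 CPM per kb, and Hsd17b7 was lowest at 1.46. Abca1 reached 83.7 CPM per kb in CD11c+CD11b+ cells against 6.30 in CD11c+CD11b- cells.

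The 3 genes of SREBP and its control, Srebf1, Srebf2 and Insig1, were highest in the untreated library of each myeloid fraction. Srebf2, which codes for the factor that mainly drives sterol synthesis, measured 246, 125, 141, 87.3 and 111 CPM in CD11c+CD11b+ cells. Its CD11c+CD11b- values were 256, 224, 208, 220.1 and 186 CPM. Its CD11c-CD11b+ values were 193, 117, 154, 97 and 99.1 CPM. Untreated was on top in each fraction, but in CD11c+CD11b- cells RT alone still held 224 CPM, close to untreated. Srebf1, which codes for the factor of fatty acid synthesis and is itself an LXR target, measured 105, 69.7, 76.8, 64.5 and 81.9 CPM in CD11c+CD11b+ cells. Insig1, which retains SREBP in the endoplasmic reticulum and is a target of it, measured 99.0, 45.4, 51.9, 36.8 and 38.0 CPM in CD11c+CD11b+ cells and 82.2, 40.5, 45.4, 35.9 and 36.5 CPM in CD11c+CD11b- cells.

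The LXR genes ran the other way. Summed over Nr1h3, Abca1, Abcg1 and Mylip, the level was 495, 1044, 989, 1533 and 1453 CPM in CD11c+CD11b+ cells. The sum was 98.1, 209, 142, 235 and 219.7 CPM in CD11c+CD11b- cells. It was 432, 922, 567, 1456 and 1283 CPM in CD11c-CD11b+ cells. RT alone thus stood at 211%, 213% and 213% of the untreated sums, and RT+aPD-1 at 310%, 239% and 337%.

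Abca1, the transporter that loads cholesterol onto lipid-poor lipoprotein, made up most of the sum in both CD11b+ fractions. Abca1 measured 357, 687, 706, 1078 and 963 CPM in CD11c+CD11b+ cells. The 5 CD11c+CD11b- libraries held 54.3, 73.5, 52.7, 60.2 and 72.1 CPM. The 5 CD11c-CD11b+ libraries held 338, 673, 396, 1088 and 935 CPM. In the 2 CD11b+ fractions the untreated library was the lowest and both anti-PD-1 libraries were the highest, with no overlap. Both anti-PD-1 libraries lay above both other irradiated ones in 21.6% of all genes in CD11c+CD11b+ and 23.3% in CD11c-CD11b+ cells. In CD11c+CD11b- cells the level was low and the untreated library lay within the irradiated range. Abcg1, which exports cholesterol to mature lipoprotein, measured 106, 294, 229.6, 378 and 411 CPM in CD11c+CD11b+ cells. Its CD11c+CD11b- values were 22.6, 102, 57.0, 132 and 112 CPM and its CD11c-CD11b+ values 70.3, 209, 141, 306 and 283 CPM. Abcg1 was thus lowest untreated in all 3 fractions.

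Nr1h3, the gene of LXR alpha, measured 5.29, 15.1, 14.0, 15.9 and 16.8 CPM in CD11c+CD11b+ cells and 4.14, 7.63, 5.20, 12.2 and 12.3 CPM in CD11c-CD11b+ cells. In CD11c+CD11b- cells Nr1h3 stayed between 0.736 and 1.26 CPM, as the rarest member. Mylip, a ubiquitin ligase that removes lipoprotein receptors, measured 27.1, 48.1, 39.6, 61.0 and 61.3 CPM in CD11c+CD11b+ cells and 20.1, 32.5, 25.3, 49.8 and 51.9 CPM in CD11c-CD11b+ cells. Its CD11c+CD11b- values were 20.5, 31.9, 31.4, 41.6 and 34.2 CPM, again with untreated lowest.

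**Figure D2:**
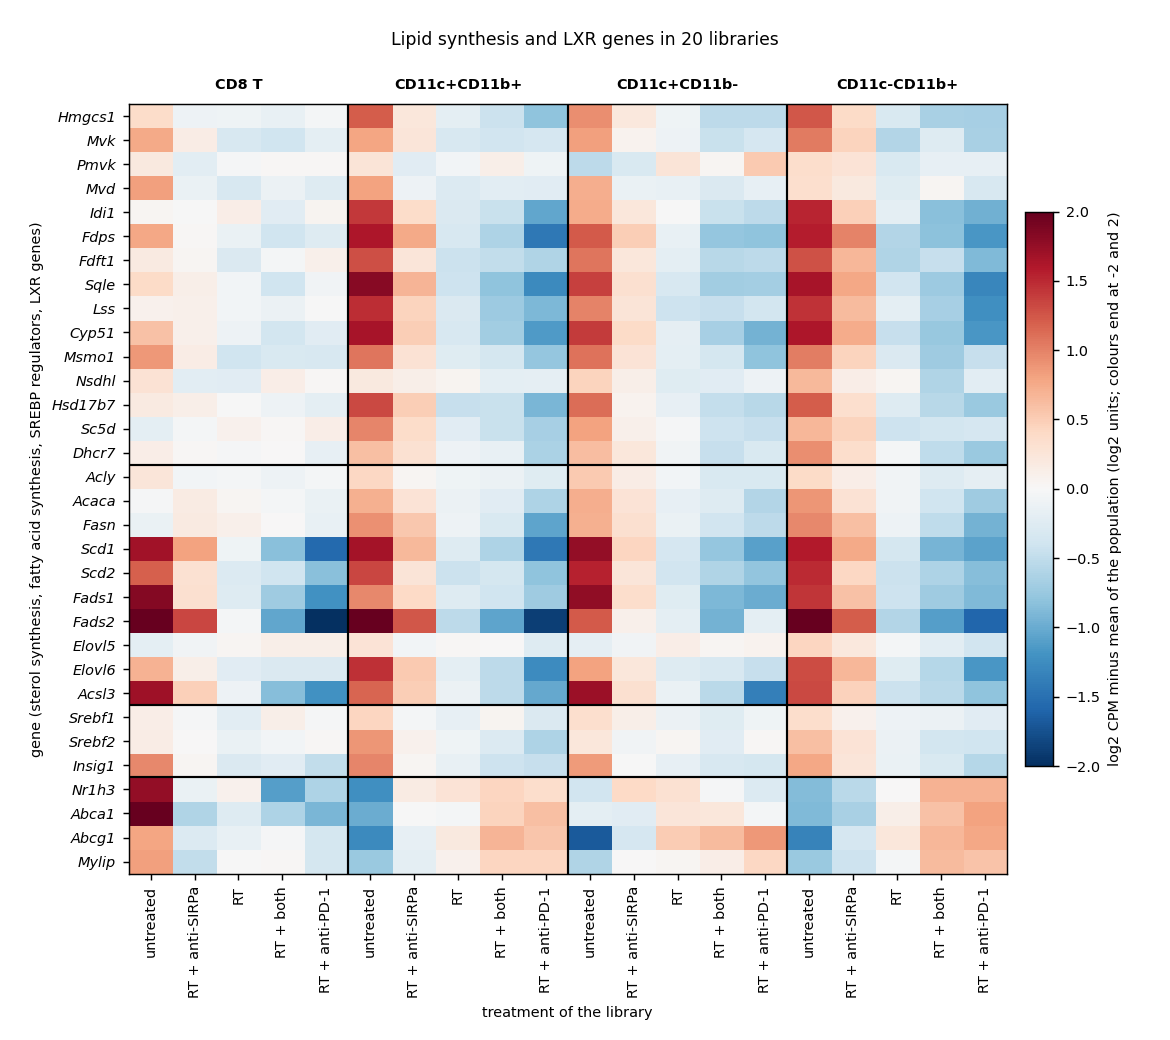
Log2 CPM of the 32 genes (rows, in 4 role groups) in the 20 libraries (columns, 4 populations by 5 treatments), each gene centred on its mean within a population. Colours end at -2 and 2 log2 units. The untreated myeloid columns are red for nearly all sterol and fatty acid genes and blue for the LXR genes, and the untreated CD8 T column is the library that goes against its label.

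Counted over genes, 28 of the 32 members in CD11c+CD11b+ cells had their highest level in the untreated library, against 28.7% of all genes with a summed level of at least 10 CPM. The count was 26 of 32 in CD11c+CD11b- cells (background 28.5%), where Pmvk and Elovl5 were exceptions, and 28 of 32 in CD11c-CD11b+ cells (background 35.3%). The LXR genes had their lowest level untreated in 4 of 4 cases in CD11c+CD11b+ cells (background 32.7%) and in CD11c-CD11b+ cells (background 31.4%). Among CD11c+CD11b- cells this held for 3 of the 4, Abca1 being the exception, and for Pmvk and Elovl5 (background 38.8%). Of the 3, Nr1h3 was too rare there to order the libraries, at 0.736 CPM untreated and 0.794 CPM in RT+aPD-1. RT+aSIRPa was the highest irradiated library for 25, 26 and 28 of the 32 members in the CD11c+CD11b+, the CD11c+CD11b- and the CD11c-CD11b+ fraction, against 39%, 38.3% and 41.3% of all genes. The full order of untreated, then RT+aSIRPa, then RT, then both anti-PD-1 libraries was found for 22, 22 and 23 members, against 14%, 14.9% and 18.2% of all genes. These are descriptions of levels with no test, and the same pools underlie all 3 fractions.

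Markers of other cells also differed between the libraries. The fibroblast markers Col1a1, Col1a2, Col3a1 and Dcn, none of them at 0, summed to 4359, 1036, 1640, 716 and 829 CPM in CD11c+CD11b+ cells. They summed to 5844, 847, 1503, 401 and 439.7 CPM in CD11c+CD11b- cells and to 5702, 1695, 2642, 1476 and 1189 CPM in CD11c-CD11b+ cells. The untreated sum was the highest in each fraction and the RT+aSIRPa sum the highest of the irradiated libraries. Col3a1 made up most of these sums, with 4781 of 5702 CPM in untreated CD11c-CD11b+ cells. In that fraction the other markers did not all share its order: Col1a1 measured 497, 273, 258, 291 and 139 CPM and Col1a2 159, 144, 112, 183 and 63.0 CPM, with RT+aPD-1 the highest irradiated library for both. By single markers, untreated was above all irradiated libraries for 3 of 4 in both CD11b+ fractions, the exception being Col1a2, and for 4 of 4 in CD11c+CD11b- cells. The 7 macrophage markers summed to 3873, 6301, 7150, 5908 and 7027 CPM in CD11c+CD11b+ cells and 2803, 3029, 2280, 3903 and 3808 CPM in CD11c-CD11b+ cells. In the second fraction both anti-PD-1 libraries had the highest sums, as for Abca1, but RT+aSIRPa and not untreated had the lowest. By single markers this top held there for Csf1r, Adgre1, Mertk and Fcgr1. C1qa, at 563, 396.5, 360, 532 and 528.5 CPM, and C1qc were highest untreated. For C1qb the untreated library (546 CPM) lay between the anti-PD-1 libraries (564 and 543 CPM). The 6 proliferation markers summed to 732, 592, 824, 347 and 476 CPM in CD11c+CD11b+ cells and 1217, 836, 1032, 554 and 626 CPM in CD11c-CD11b+ cells. In CD11c+CD11b- cells they summed to 1237, 1608, 1740, 1320 and 1575 CPM, so the untreated library was the lowest there. In the CD11c-CD11b+ RT+aSIRPa library 4 neutrophil markers summed to 2830 CPM, against 519 to 1403 CPM in the other 4. The tumour epithelial markers Krt8, Krt18, Krt19 and Epcam summed to at most 5.89 CPM in any library. Dendritic cell markers differed as well. In the CD11c+CD11b- fraction the cDC1 markers Xcr1, Clec9a, Itgae and Irf8 summed to 597, 1724, 1290, 2052 and 1710 CPM. The mature dendritic cell markers Ccr7, Fscn1 and Ccl22 summed to 352, 1232, 614, 1394 and 1037 CPM there, and the cDC2 markers Cd209a, Mgl2 and Ccl17 to 12.1, 104, 26.7, 83.7 and 75.0 CPM. All 3 sums were lowest untreated and, among irradiated libraries, lowest in RT+aSIRPa, where the synthesis enzymes were highest. None of these 10 markers was at 0. Other marker sums of this fraction had other orders. The NK cell markers Ncr1, Klrb1c and Klra8 summed to 502, 578, 705, 538 and 668.5 CPM, highest in RT+aSIRPa. The plasmacytoid dendritic cell markers Siglech, Ccr9 and Tcf4 summed to 309, 529, 254, 728 and 465 CPM, with RT+aSIRPa below untreated. In CD11c+CD11b+ cells RT+aSIRPa had the lowest cDC2 sum, 37.1 CPM against 108 to 159.9 CPM, and the lowest mature sum, 234 CPM against 439 to 519 CPM. The part of any of these cells in the results on lipid genes was not tested.

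The test of irradiation compared the 4 irradiated libraries of a fraction with its 1 untreated library, which was assumed to vary like them. In this fit the antibody differences count as error. With edgeR's quasi-likelihood test and adjustment over all genes, 0 of 32 members passed at an adjusted p of 0.05 in CD11c+CD11b+ cells (background 0.343% of genes), 0 in CD11c+CD11b- cells (background 0.019%) and 0 in CD11c-CD11b+ cells (background 0.0047%). At an unadjusted p under 0.05 there were 29, 28 and 26 members, against 15.8%, 22.5% and 19% of all genes, and DESeq2 called 20, 24 and 13. The median log2 fold change of the members was -1.17, -1.06 and -1.19, beside 0.023, 0.035 and 0.024 over all genes tested. Sterol genes had medians of -1.47, -1.20 and -1.48, and LXR genes of 1.40, 0.56 and 1.16. Without the RT+aSIRPa library the test called 27, 25 and 29 members, and with antibody terms added it called 28, 22 and 0.

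Fads2, Sqle, Cyp51 and Scd1 had the largest negative values in CD11c+CD11b+ cells. Fads2 differed by -2.30 ± 0.89 (log2 fold change ± SE) in CD11c+CD11b+ cells and by -2.16 ± 0.86 in CD11c-CD11b+ cells, with edgeR adjusted p = 0.286 and 0.25. For Sqle the values were -2.10 ± 0.57, -1.73 ± 0.35 and -1.88 ± 0.61 in the CD11c+CD11b+, the CD11c+CD11b- and the CD11c-CD11b+ fraction. Among CD11c+CD11b- cells Fads1 led with -2.18 ± 0.44, followed by Scd1 with -2.17 ± 0.46, at edgeR adjusted p = 0.087 and 0.0887. Abcg1 was higher by 1.63 ± 0.35, 2.09 ± 0.48 and 1.72 ± 0.46. The member nearest the threshold was Nr1h3 in CD11c+CD11b+ cells, at 1.53 ± 0.22 and edgeR adjusted p = 0.0536. Insig1 followed in the same cells at -1.22 ± 0.18 and edgeR adjusted p = 0.0554. All of these differences exceeded their standard errors, and none passed after adjustment over all genes. The 3 tests share no library, but each rests on the same untreated pool of mice.

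Within the irradiated pools, the effect of anti-PD-1 was tested on 2 libraries with the antibody against 2 without it, with anti-SIRPa as a second term, which leaves 1 residual degree of freedom. In CD11c+CD11b+ cells 16 members fell with anti-PD-1 (background 4.74% of genes lower) and 3 rose (background 1.92% higher). Those that fell were 7 sterol genes (Hmgcs1, Idi1, Fdps, Sqle, Lss, Cyp51 and Msmo1), 8 fatty acid genes (Acaca, Fasn, Scd1, Scd2, Fads1, Fads2, Elovl6 and Acsl3) and Srebf2. Those that rose were Abca1, Abcg1 and Mylip. The member median was -0.46, beside 0.0029 over all genes tested.

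In CD11c+CD11b+ cells Fads2 fell by 1.83 ± 0.24 on the log2 scale with anti-PD-1, from 12.0 and 40.7 CPM without the antibody to 4.67 and 8.32 CPM with it (edgeR adjusted p = 0.00983). Fdps fell by 1.23 ± 0.14 (adjusted p = 0.00803), Scd1 by 1.19 ± 0.10 (adjusted p = 0.00566) and Sqle by 1.15 ± 0.18 (adjusted p = 0.017). Scd1 went from 36.1 and 68.0 CPM to 16.0 and 28.4 CPM, so the pairs did not overlap. The same held, in this direction, for 34.7% of all genes. Abcg1 rose by 0.63 ± 0.11 (adjusted p = 0.0244), Abca1 by 0.58 ± 0.11 (adjusted p = 0.0279) and Mylip by 0.52 ± 0.094 (adjusted p = 0.0253). Nr1h3 did not pass, at 0.20 ± 0.13 and edgeR adjusted p = 0.381. The count of 19 members was 0 without the filter on low counts and 0 without the term for anti-SIRPa, whereas DESeq2 called 16. Fits that left out 1 library also dropped that term and kept 1 library in an arm. They therefore cannot show what a single library contributed. The fibroblast markers of this fraction summed to 1036 and 1640 CPM without anti-PD-1 and to 716 and 829 CPM with it, and their part in the result was not tested.

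Among CD11c+CD11b- cells 5 members fell with anti-PD-1 (background 2.89%) and 0 rose. Acsl3 fell by 1.00 ± 0.19 (edgeR adjusted p = 0.0473), Fads1 by 0.97 ± 0.15 (adjusted p = 0.0303), Fdps by 0.94 ± 0.18 (adjusted p = 0.0471) and Scd1 by 0.93 ± 0.15 (adjusted p = 0.0304). Cyp51 was the fifth, from 39.7 and 58.9 CPM to 23.4 and 28.4 CPM. Fads2, which fell in the other CD11c+ fraction, had -0.48 ± 0.25 here (adjusted p = 0.283). The count was 0 without the filter or without the anti-SIRPa term, and 8 by DESeq2. Fits without 1 library lacked that term too, so they do not show what the library contributed. Fibroblast markers summed to 847 and 1503 CPM without anti-PD-1 and to 401 and 439.7 CPM with it. Macrophage markers summed to 551 and 419.7 CPM without it and to 252 and 319 CPM with it, and cDC1 markers to 1724 and 1290 CPM and to 2052 and 1710 CPM. The part of these cells in the result was not tested.

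In CD11c-CD11b+ cells 0 members passed by edgeR, where 0% of all genes did, although the member median was the lowest of the 4 populations at -0.65, beside 0.016 over all genes. At an unadjusted p under 0.05 there were 25 members (background 15.1%), and DESeq2 called 14. Fads2 had -1.66 ± 0.32, from 18.0 and 62.6 CPM to 8.97 and 12.6 CPM, at edgeR adjusted p = 0.138. Sqle had -1.19 ± 0.18 and Abca1 0.99 ± 0.20, each at adjusted p = 0.138. Fits that left out 1 library also dropped the anti-SIRPa term, so their counts cannot be credited to that library. Fibroblast markers summed to 1695 and 2642 CPM without anti-PD-1 and to 1476 and 1189 CPM with it. Proliferation markers summed to 836 and 1032 CPM and to 554 and 626 CPM. Macrophage markers summed to 3029 and 2280 CPM and to 3903 and 3808 CPM, and neutrophil markers to 519 and 2830 CPM and to 1403 and 861 CPM. The part of these differences in the values of the members was not tested.

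CD8 T cells showed lower desaturases with anti-PD-1 and no passing change of sterol genes. Scd1 measured 24.4, 45.4, 8.86 and 14.6 CPM in the irradiated CD8 T libraries (RT, RT+aSIRPa, RT+aPD-1 and both). Fads2 measured 9.95, 25.9, 1.81 and 4.96 CPM and Fads1 40.7, 61.1, 21.1 and 29.9 CPM in the same order. In all 3 genes the anti-PD-1 libraries were the low ones, without overlap. In the test 5 members fell (background 4.28%): Fads2 by 2.41 ± 0.18 (edgeR adjusted p = 0.000916), Scd1 by 1.55 ± 0.14 (adjusted p = 0.00188), Acsl3 by 1.21 ± 0.23 (adjusted p = 0.0251), Fads1 by 0.99 ± 0.10 (adjusted p = 0.00371) and Scd2.

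The sterol genes of CD8 T cells had a median of -0.083 under anti-PD-1, and Hmgcs1 measured 54.4, 53.7, 56.3 and 52.0 CPM in the 4 irradiated libraries, nearly level. Sqle measured 28.8, 32.4, 28.5 and 22.7 CPM and Fasn 349, 368, 293 and 326 CPM. Both anti-PD-1 libraries lay below both others in 14 of the 32 members, against 23.6% of all genes. The count of 5 fallen members was 0 without the filter or the anti-SIRPa term, and DESeq2 also called 5. Fits without 1 library dropped that term too, so they do not isolate the library. Fibroblast markers in these libraries summed to 729, 928, 396 and 521 CPM and macrophage markers to 1356, 1196, 601 and 917 CPM. Both marker sums were lowest with anti-PD-1, and their part in the fall of the desaturases was not tested.

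**Figure D3:**
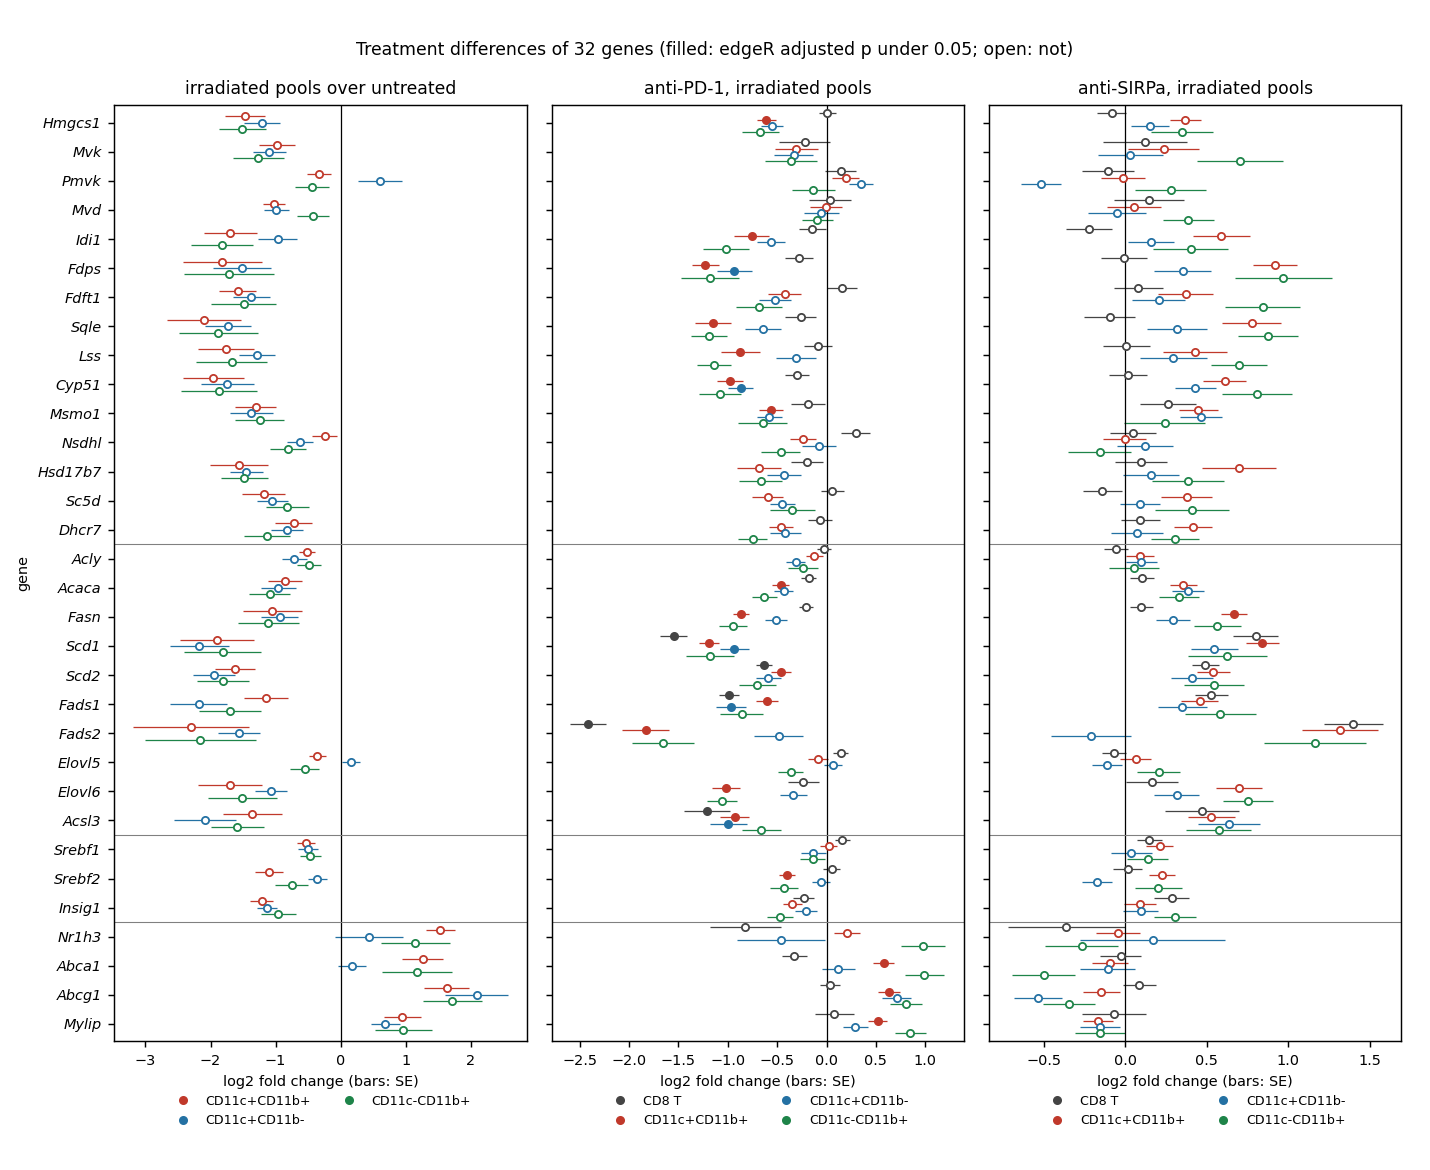
Log2 fold changes (horizontal axis; bars are standard errors) of the 32 genes for irradiated over untreated pools, anti-PD-1 and anti-SIRPa, with colours for populations; filled points have an edgeR adjusted p under 0.05 and open points do not. No member is filled for irradiation, while under anti-PD-1 the filled points are 19 in CD11c+CD11b+ cells and 5 each in CD8 T and CD11c+CD11b- cells.

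Anti-SIRPa was tested on the same 4 libraries as anti-PD-1, so the tests share their samples. In CD11c+CD11b+ cells 2 members rose (background 0.125%). Scd1 rose by 0.84 ± 0.10 and Fasn by 0.67 ± 0.081, both at edgeR adjusted p = 0.0451. Scd1 stood at 36.1 and 16.0 CPM without anti-SIRPa and at 68.0 and 28.4 CPM with it, so the pairs overlapped, and the difference is one at equal anti-PD-1 status. Both calls were lost when the filter or the anti-PD-1 term was left out, and DESeq2 called 5. Fits without 1 library dropped that term too, so they do not isolate the library. By edgeR 0 members passed in CD8 T cells (background 0.101%), CD11c+CD11b- cells (background 0.00523%) or CD11c-CD11b+ cells (background 0%). At an unadjusted p under 0.05 the counts were 5, 9 and 15 (backgrounds 9.77%, 12.3% and 4.36%), and DESeq2 called 2, 0 and 0. Member medians were 0.085, 0.37, 0.15 and 0.39 in CD8 T, the CD11c+CD11b+, the CD11c+CD11b- and the CD11c-CD11b+ fraction. Fads2 had the largest values, 1.40 ± 0.18 in CD8 T cells (adjusted p = 0.0557) and 1.32 ± 0.23 in CD11c+CD11b+ cells (adjusted p = 0.108).

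Whether the treatment differences themselves differed between fractions was tested against CD11c+CD11b+ cells. By edgeR 0 members passed for irradiation in CD11c+CD11b- cells (background 1.37%) and 0 in CD11c-CD11b+ cells (background 0.388%). For anti-PD-1 it was 0 in CD11c+CD11b- cells (background 0.0906%) and 0 in CD11c-CD11b+ cells (background 0.0265%). At an unadjusted p under 0.05 these counts were 8, 3, 7 and 1, against 18.2%, 9.36%, 9.78% and 4.82% of all genes, and DESeq2 called 2, 0, 1 and 0. Nearest to the threshold was Fads1, with an irradiation difference lower by 0.98 ± 0.20 in the CD11b- than in the CD11b+ fraction of CD11c+ cells (edgeR adjusted p = 0.0771), which passed without the RT+aSIRPa library. Next was Fads2, whose anti-PD-1 difference was 1.32 ± 0.14 higher in CD11c+CD11b- cells (edgeR adjusted p = 0.0777), which passed with RLE scaling. Elovl5 followed, and Pmvk had an irradiation difference 1.00 ± 0.29 higher in CD11c+CD11b- cells (edgeR adjusted p = 0.142). These p-values do not show that the fractions responded alike.

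Between populations, LXR genes had the largest fold changes wherever CD11c+CD11b- or CD8 T cells were set against a CD11b+ fraction. In the comparisons of myeloid fractions, which used all 5 pools with the pool as a block, CD11c+CD11b- cells had 12 members higher (background 23.1%) and 8 lower (background 22.3%) than CD11c+CD11b+ cells. Nr1h3 had a log2 fold change of -3.69 ± 0.23 (edgeR adjusted p = 2.80e-05) and Abca1 of -3.53 ± 0.21 (adjusted p = 2.74e-05). Abcg1 had -1.83 ± 0.12 (adjusted p = 3.92e-05) and Fads1 -0.86 ± 0.17 (adjusted p = 0.00582). Those higher in CD11c+CD11b- cells by the largest folds were Elovl6 with 1.10 ± 0.20 (adjusted p = 0.00341), Lss with 1.07 ± 0.15 (adjusted p = 0.0012), Idi1 with 0.76 ± 0.17 (adjusted p = 0.00959) and Srebf2 with 0.70 ± 0.17 (adjusted p = 0.0123). In all, 7 sterol genes were higher and 1, Mvd, was lower. The shares of members called are not set apart from the background of all genes here. Macrophage markers summed to 252 to 583 CPM in CD11c+CD11b- cells and 3873 to 7150 CPM in CD11c+CD11b+ cells, and their part was not tested.

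Against CD11c-CD11b+ cells, CD11c+CD11b- cells had 9 members higher (background 23%) and 10 lower (background 24.1%). Lower were Abca1 with -3.32 ± 0.23 (edgeR adjusted p = 6.95e-05), Nr1h3 with -2.96 ± 0.32 (adjusted p = 0.000414), Abcg1 with -1.31 ± 0.10 (adjusted p = 8.32e-05) and Acsl3 with -0.76 ± 0.15 (adjusted p = 0.00492). Higher were Pmvk with 0.99 ± 0.25 (adjusted p = 0.0146), Lss with 0.83 ± 0.19 (adjusted p = 0.0109), Srebf2 with 0.77 ± 0.13 (adjusted p = 0.00274) and Elovl5 with 0.74 ± 0.16 (adjusted p = 0.00782). Without the RT pool 12 members passed in place of 19.

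Between the 2 CD11b+ fractions fewer members were called: CD11c+CD11b+ cells had 4 members higher (background 12%) and 9 lower (background 12.9%) than CD11c-CD11b+ cells. Higher were Pmvk with 0.73 ± 0.13 (edgeR adjusted p = 0.00377), Nr1h3 with 0.71 ± 0.17 (adjusted p = 0.0152), Abcg1 with 0.51 ± 0.070 (adjusted p = 0.00136) and Mylip with 0.42 ± 0.076 (adjusted p = 0.00459). The fatty acid genes Scd1, with -0.73 ± 0.094 (adjusted p = 0.00106), Fads2, with -0.64 ± 0.076 (adjusted p = 0.000797), Fasn, with -0.63 ± 0.068 (adjusted p = 0.000565), and Elovl6, with -0.52 ± 0.073 (adjusted p = 0.00162), were lower. Altogether 6 of 10 fatty acid genes and 3 of 15 sterol genes were lower. Without the pool as a replicate block the 3 myeloid comparisons called 4, 5 and 1 members in place of 20, 19 and 13, since the spread between treatments is then part of the error.

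In the 4 irradiated pools CD8 T cells had 11 members higher (background 24.4%) and 14 lower (background 25.7%) than CD11c+CD11b+ cells. All 4 LXR genes were lower, Nr1h3 with -2.86 ± 0.26 (edgeR adjusted p = 0.00022), Abca1 with -2.59 ± 0.22 (adjusted p = 0.000162), Abcg1 with -1.99 ± 0.15 (adjusted p = 9.17e-05) and Mylip with -1.30 ± 0.13 (adjusted p = 0.0003). Higher were Lss with 1.19 ± 0.20 (adjusted p = 0.00316), Idi1 with 1.11 ± 0.23 (adjusted p = 0.0074), Hsd17b7 with 0.96 ± 0.20 (adjusted p = 0.0074) and Fasn with 0.90 ± 0.19 (adjusted p = 0.00808). Sterol synthesis genes thus included 7 that were higher in CD8 T cells and 3 that were lower, while 6 of 10 fatty acid genes were lower. Without the pool with both antibodies 16 members passed in place of 25.

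Against CD11c-CD11b+ cells, 6 members were higher in CD8 T cells (background 24.9%) and 13 lower (background 26.7%). The 4 lowest were Abca1 with -2.38 ± 0.30 (edgeR adjusted p = 0.000726), Nr1h3 with -2.06 ± 0.40 (adjusted p = 0.00505), Abcg1 with -1.49 ± 0.19 (adjusted p = 0.000788) and Scd1 with -1.48 ± 0.14 (adjusted p = 0.000237). The 4 highest were Idi1 with 1.11 ± 0.24 (adjusted p = 0.00768), Lss with 0.93 ± 0.27 (adjusted p = 0.0238), Elovl5 with 0.66 ± 0.14 (adjusted p = 0.00756) and Dhcr7 with 0.55 ± 0.17 (adjusted p = 0.0302). Without the replicate block 11 members passed in place of 19.

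CD8 T cells and CD11c+CD11b- cells had the fewest members called, with 1 member higher in CD8 T cells (background 8.57%) and 8 lower (background 10.4%). The higher one was Abca1, with 1.09 ± 0.12 (edgeR adjusted p = 0.0014). Macrophage markers summed to 1356, 1196, 601 and 917 CPM in the irradiated CD8 T libraries (RT, RT+aSIRPa, RT+aPD-1 and both). In CD11c+CD11b- cells they summed to 551, 419.7, 252 and 319 CPM, lower in every irradiated pool. The part of macrophage RNA in the Abca1 difference was not tested. Lower were Fads2 with -2.004 ± 0.51 (adjusted p = 0.0376), Pmvk with -0.9999 ± 0.13 (adjusted p = 0.0033), Scd1 with -0.93 ± 0.16 (adjusted p = 0.00838) and Elovl6 with -0.93 ± 0.093 (adjusted p = 0.00109). Without the RT pool 5 members passed in place of 9. With the fifth pool, whose untreated CD8 T library goes against its label, the comparisons of CD8 T with the CD11c+CD11b+, the CD11c+CD11b- and the CD11c-CD11b+ fraction called 8, 4 and 8 members. In that library Abca1 stood at 1102 CPM, against 112 to 175 CPM in the irradiated CD8 T libraries.

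**Figure D4:**
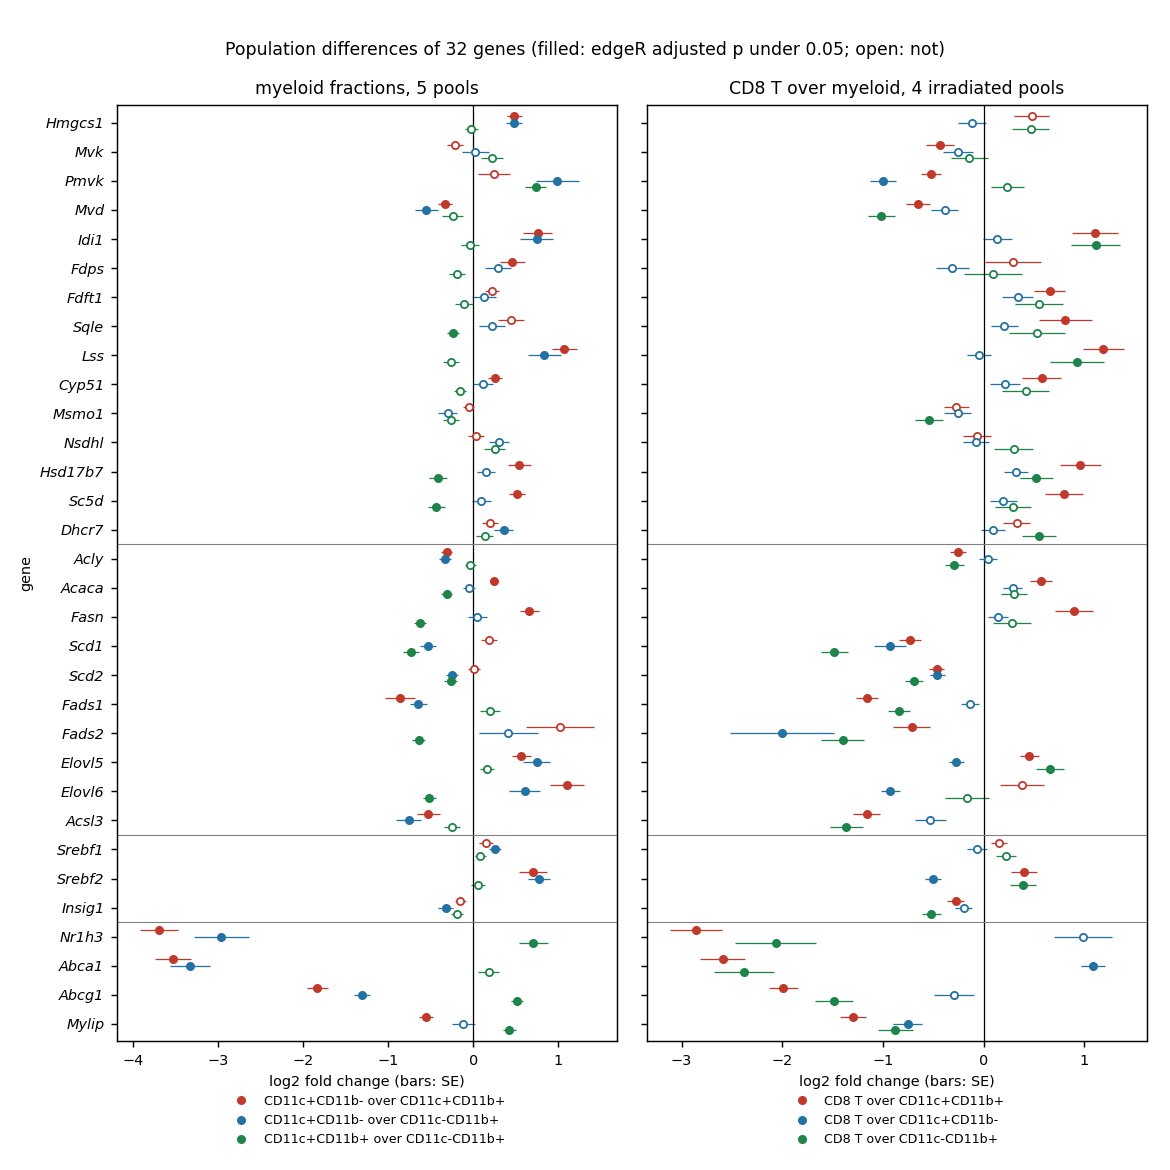
Log2 fold changes (horizontal axis; bars are standard errors) of the 32 genes between myeloid fractions over 5 pools and between CD8 T cells and each myeloid fraction over 4 irradiated pools; filled points have an edgeR adjusted p under 0.05. Nr1h3, Abca1 and Abcg1 lie far left for CD11c+CD11b- against both CD11b+ fractions, with Nr1h3 at -3.69 and -2.96.

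The order of populations can be read from the irradiated means (± SD, n = 4 pools of different antibody treatment). Abca1 measured 858 ± 193 CPM in CD11c+CD11b+, 773 ± 304 in CD11c-CD11b+, 141 ± 26.2 in CD8 T and 64.6 ± 9.94 in CD11c+CD11b- cells. The first 2 overlapped within their SD and did not pass the test against each other, whereas the other steps of that order did. Srebf2 was highest in CD11c+CD11b- cells at 209.6 ± 17.0 CPM, followed by CD8 T cells at 151 ± 7.25 CPM. CD11c-CD11b+ and CD11c+CD11b+ cells, at 117 ± 26.3 and 116 ± 22.8 CPM, had overlapping SDs and did not pass against each other. Hmgcs1 had 58.6 ± 15.0 CPM in CD11c+CD11b-, 54.1 ± 1.79 in CD8 T, 40.7 ± 15.2 in CD11c-CD11b+ and 40.2 ± 12.2 in CD11c+CD11b+ cells. These SDs overlap, but within pools the test called Hmgcs1 higher in CD11c+CD11b- libraries than in those of the CD11c+CD11b+ fraction, with 0.48 ± 0.088 (edgeR adjusted p = 0.00368), and than in CD11c-CD11b+ libraries, with 0.47 ± 0.097 (edgeR adjusted p = 0.00625). The 2 CD11b+ fractions did not pass against each other, nor did CD8 T cells against any of the 3.

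Outside the 32 members, 25 other genes of sterol and fatty acid metabolism were counted as a list. Under anti-PD-1, 4 of the 25 fell in CD11c+CD11b+ cells (background 4.74%), 4 in CD11c+CD11b- cells (background 2.89%) and 2 in CD8 T cells (background 4.28%), and 0 rose. In CD11c-CD11b+ cells 0 passed by edgeR (background 0%), with 7 at an unadjusted p under 0.05 (background 15.1%) and 2 by DESeq2. Those in CD11c+CD11b+ cells included Stard4, a carrier of cholesterol, with -0.91 ± 0.15 (edgeR adjusted p = 0.0208), and Me1, a source of NADPH for lipid synthesis, with -0.87 ± 0.12 (edgeR adjusted p = 0.011). In CD8 T cells Me1 and Ch25h passed, with -1.24 ± 0.19 and -1.03 ± 0.19 (edgeR adjusted p = 0.0118 and 0.0222). Ch25h, the enzyme that makes a hydroxylated sterol, also fell in CD11c+CD11b- cells, with -1.58 ± 0.19 (edgeR adjusted p = 0.0184). For irradiation 0 of 25 passed by edgeR in the 3 fractions, with 9, 11 and 13 at an unadjusted p under 0.05 (backgrounds 15.8%, 22.5% and 19%) and 2, 6 and 5 by DESeq2 in the CD11c+CD11b+, the CD11c+CD11b- and the CD11c-CD11b+ fraction. For anti-SIRPa 0 of 25 passed by edgeR in any population, with 3, 7, 6 and 2 at an unadjusted p under 0.05 (backgrounds 9.77%, 11.4%, 12.3% and 4.36%) in CD8 T, the CD11c+CD11b+, the CD11c+CD11b- and the CD11c-CD11b+ fraction and 0, 1, 0 and 0 by DESeq2. The list median for irradiation was -0.26, -0.43 and -0.43 in the CD11c+CD11b+, the CD11c+CD11b- and the CD11c-CD11b+ fraction, nearer to 0 than that of the 32 members in each.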

How the data were processed

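RNA-seq of 20 pooled libraries, 4 sorted populations by 5 treatments, was grouped by the labels' titles. The deposited values are whole-number estimated counts per transcript that the authors made with HISAT2 and StringTie on GRCm38, per the submitters' processing notes, which also name FastQC 0.11.8 and edgeR 3.34.0; the sources used here give no version for the first 2. How StringTie output became counts is not stated. Counts were summed to genes through GENCODE M21 (141469 of 142699 transcripts matched; unmatched ones held at most 0.399% of a library).

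Genes passing edgeR's filterByExpr (minimum count 10, total 15) were tested with edgeR 4.0.16 quasi-likelihood fits in R 4.3.3, with TMM scaling and Benjamini-Hochberg adjustment over all genes, at 0.05. SE was the absolute fold change (log2) divided by the root of the F statistic. Myeloid fractions were compared over 5 pools and CD8 T cells over 4 irradiated pools, with the pool as a replicate block, because all sorted populations of 1 treatment shared 1 pool of mice, per the labels' protocols. Irradiated and untreated libraries, and the 2 antibodies within irradiated libraries, were compared within populations. The library labelled untreated CD8 T was left out of these tests and enters an alternative. P-values measure only the spread between pools. The code was tested on simulated data.

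Alternatives were RLE scaling, no filter, DESeq2 1.42.0, no block, other antibody terms, and leaving out each pool. In the antibody tests, leaving out a pool also dropped the other antibody's term. Full statistics were given for at most 4 members a direction with the largest fold changes and at least 10 CPM in 2 libraries; further members are named to show their levels. Members and lists were chosen with earlier results of these data known. Promoters are RefSeq sequences of GRCm38.p6. Only some of the other pathway genes that passed are named, and 1 such result is not reported here.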

Additional observations from a re-analysis of the deposited data

Results flagged for a closer look

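For Pmvk, mevalonate's second kinase, every irradiated library was above the untreated one in CD11c+CD11b- cells and every irradiated library was below it in CD11c-CD11b+ cells. The mean log2 difference between irradiated and untreated libraries was 1.08 higher in the first fraction. Elovl5, the elongase of polyunsaturated chains, had the same opposite directions, with a gap of 0.769 in mean log2 difference. The difference between these 2 fractions was not tested, and each fraction had 1 untreated library.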

How the results depend on the processing

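Each fold change of a called member kept its direction under every alternative run. Together with the called ones among 25 other pathway genes, 1307 values for single genes still passed, 533 no longer passed and 0 reversed. Of the counts of called members, 110 stayed within 1.5 times, 20 rose and 32 fell; the causes were not tested beyond what the construction of an alternative shows. Without the replicate block the counts were 4, 1 and 5 for CD11c+CD11b- against CD11c+CD11b+, CD11c+CD11b+ against CD11c-CD11b+ and CD11c+CD11b- against CD11c-CD11b+ cells. It was 11 when CD8 T were set against CD11c-CD11b+ cells. With all 5 pools, CD8 T cells differed from the CD11c+CD11b+, the CD11c+CD11b- and the CD11c-CD11b+ fraction in 8, 4 and 8 members. For irradiation DESeq2 called 20, 24 and 13 in the CD11c+CD11b+, the CD11c+CD11b- and the CD11c-CD11b+ fraction, and added antibody terms gave 28 and 22 in the first 2. For anti-PD-1 the count was 0 without the filter and 0 with the other antibody's term dropped in CD8 T, CD11c+CD11b+ and CD11c+CD11b- cells, and DESeq2 called 8 in CD11c+CD11b- and 14 in CD11c-CD11b+ cells. For anti-SIRPa DESeq2 called 2 in CD8 T and 5 in CD11c+CD11b+ cells, where the count was 0 without the filter or the other term. For the difference between CD11c+CD11b- and CD11c+CD11b+ cells DESeq2 called 2 for irradiation and 1 for anti-PD-1, and RLE scaling 1 for anti-PD-1.

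Leaving out 1 pool at a time gave 16 to 24 for CD11c+CD11b- against CD11c+CD11b+ cells. It gave 10 to 16 for CD11c+CD11b+ against CD11c-CD11b+ libraries and 12 to 19 for CD11c+CD11b- against CD11c-CD11b+ cells. When CD8 T were set against the CD11c+CD11b+, the CD11c+CD11b- and the CD11c-CD11b+ fraction it gave 16 to 24, 5 to 10 and 13 to 28. For irradiation it gave 0 to 27, 0 to 25 and 0 to 29 in the CD11c+CD11b+, the CD11c+CD11b- and the CD11c-CD11b+ fraction. For anti-PD-1 it gave 0 to 5, 0 to 7, 0 to 9 and 0 to 27 in CD8 T, the CD11c+CD11b+, the CD11c+CD11b- and the CD11c-CD11b+ fraction, and for anti-SIRPa 0 in all. The difference in irradiation between fractions was set against CD11c+CD11b+ cells, and these leave-outs were chosen after seeing the data. There it gave 0 to 1 for CD11c+CD11b- cells and 0 for CD11c-CD11b+ cells. In the fits for either antibody, leaving out a pool also dropped the other antibody's term, so a changed count is not due to the pool alone. A lone library left in an arm was assumed to vary like the others. Counts of Nr1h3 in CD11c+CD11b- cells were the lowest of any member and limit its precision.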
